A study of Mus musculus with 2 samples.

Results

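The miRNA genes described here in skeletal muscle are known from neurons or glia: Mir338, Mir132, Mir212, Mir598, Mir218-1, Mir218-2, Mir137, Mir383, Mir92b and Mir7b. They are 10 of the 2202 miRNA genes in the deposited count files and were taken by their GENCODE M21 gene name. The tissue was gastrocnemius from the calf of B6CASTF1/J females aged 10 days, a first-generation hybrid of C57BL/6 and CAST, and the labels name no treatment. Total RNA was used, and the small RNA libraries were restricted to inserts below 30 bases. The 2 libraries form 1 group, biological replicates 2 and 1, which the labels number as different females although both carry the same donor entry. The design therefore holds no contrast of conditions. The data give the level of each gene, its annotated surroundings and the ratio of replicate 2 to replicate 1. The 10 genes were selected with their counts in these libraries known: Mir137, Mir383, Mir92b and Mir7b had been chosen by that same ratio, and Mir338 by its level. Levels and ratios of the 10 genes are thus a description, with no test.

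MicroRNAs are short RNAs that guide Argonaute proteins to messenger RNAs, mainly through the seed, bases 2 to 8 from the 5′ end. Nerve reaches muscle as motor axons, sensory axons and the Schwann cells that wrap them, but the cell bodies of the neurons lie outside the muscle. Reads of dissected gastrocnemius come from muscle fibres together with nerve, vessels, blood and connective tissue. In such bulk tissue, fewer cells of a type and less RNA per cell cannot be told apart.

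Mature sequences show which of the genes could act through a common seed and which cannot be separated by their reads. Of the 10 genes, 8 had an entry in the RefSeq table of build GRCm38.p6, with hairpin coordinates equal to those of GENCODE M21, and Mir598 and Mir383 had none. The arm shown is the one generally regarded as the main product, 5′ to 3′, with the seed in capitals:
miR-338-3p: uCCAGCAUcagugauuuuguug
miR-132-3p: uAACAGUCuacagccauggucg
miR-212-3p: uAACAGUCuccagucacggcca
miR-218-5p: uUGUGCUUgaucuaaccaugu
miR-137-3p: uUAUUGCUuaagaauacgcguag
miR-92b-3p: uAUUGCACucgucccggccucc
miR-7b-5p: uGGAAGACuugugauuuuguuguu
The pair miR-132-3p and miR-212-3p carry the same seed and differ at 5 of 22 bases. Mir218-1 and Mir218-2 encode the same miR-218-5p. No other annotated mature miRNA in the table had the seed of miR-338-3p or of miR-137-3p.

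The libraries held 3949733 sense reads on miRNA genes in replicate 2 and 3510897 in replicate 1, and levels are counts per 1e6 such reads (CPM). One read is worth 0.253 CPM in the replicate 2 library and 0.285 CPM in that of replicate 1. A separate row for reads aligned to several places held 46.4% of the file in replicate 2 and 42.6% in replicate 1. The rule behind that row is not given, so whether such reads were also counted on a gene is not known. The percentages presume that they were not, because the total adds that row to the sense reads. A read of this length class covers a whole mature miRNA, so CPM were not divided by gene length. Intervals are exact 95% intervals that cover counting error only, and SDs are over the 2 animals.

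Together the 10 genes held 0.0826% of the counted reads in replicate 2 (Clopper-Pearson interval 0.0798% to 0.0855%) and 0.0459% in replicate 1 (0.0437% to 0.0482%). The mean was 0.0643% ± 0.0260 (SD, n = 2). Mir338 alone held 47.2% of the reads on the 10 genes. Mir137 held 17.0% of them and Mir132 16.7%. Of the 10 genes, 8 reached 2 CPM in both animals, the limit used here for detection, as did 332 of all genes. The other 2, Mir218-1 and Mir218-2, stood just under that limit in replicate 1. By mean level the genes ran from rank 134 for Mir338 to rank 340 for Mir218-1 among all 2202 genes.

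**Figure D1:**
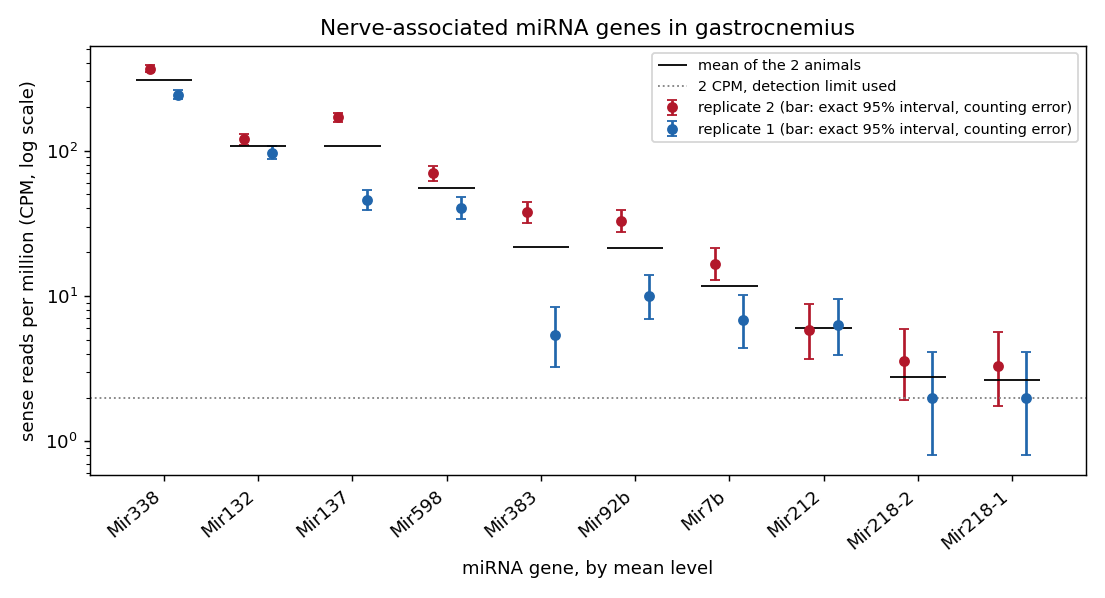
Level of each of the 10 genes in sense reads per 1e6 (CPM, log axis), with replicate 2 and replicate 1 as points, exact 95% counting intervals as bars and the mean of the 2 animals as a line. Mir338 leads in both libraries, the 2 points lie far apart for Mir137, Mir383 and Mir92b, and Mir218-1 and Mir218-2 sit at the 2 CPM limit in replicate 1.

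Mir338, a miRNA of neurons and of myelinating glia, had the highest level of the 10 genes in both libraries. It had 1449 reads or 366.9 CPM in replicate 2, against 853 reads or 243.0 CPM in replicate 1, a mean of 304.9 ± 87.6 CPM (SD, n = 2). The gene (ENSMUSG00000065600.1, mm10 chromosome 11, 120014765 to 120014862, minus strand) lies in an intron of all 6 transcripts that span it of Aatk, which encodes a kinase of neurons. Its level was 1.51-fold higher in replicate 2 (interval 1.39 to 1.65), which is short of 2-fold.

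The opposite strand of the Mir338 locus carries Mir3065, whose gene overlaps it by 87 bases. Their mature products overlap by 21 bases, shown in capitals in the opposite-strand sequence, which is there the reverse complement of miR-338-3p:
miR-3065-5p: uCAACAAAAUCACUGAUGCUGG
Mir3065 had 5 sense reads in replicate 2 and 4 in replicate 1, and these are the same 5 and 4 reads counted antisense to Mir338. Nearly all reads of the locus were thus in the orientation of Mir338. Counted without regard to strand, such reads were ambiguous and Mir338 stood at 0 in both libraries. None of the other 9 genes had an antisense read or a miRNA gene on its opposite strand.

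Mir132 and Mir212, induced by neuronal activity through the factor CREB, form a pair on chromosome 11 with 203 bases between them. Mir212 (ENSMUSG00000065590.1, 75173388 to 75173478, plus strand) lies upstream of Mir132 (ENSMUSG00000065537.2, 75173682 to 75173747), both in an intron of the noncoding gene 1700016P03Rik. Mir132 had 473 reads or 119.8 CPM in replicate 2, against 341 reads or 97.1 CPM in replicate 1, a mean of 108.4 ± 16.0 CPM. Mir212 had 23 reads or 5.82 CPM in replicate 2, against 22 reads or 6.27 CPM in replicate 1, a mean of 6.04 ± 0.313 CPM. The neighbours therefore differed widely in level within each library, with Mir132 the higher in both.

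The ratio of the libraries was near 1 for this pair. Mir132 was 1.23-fold higher in replicate 2 (interval 1.07 to 1.42). For Mir212 the ratio was 0.929 (0.495 to 1.75), and it was the one gene of the 10 with a ratio below 1. Its interval includes 1, so no difference was detectable at this depth. Neither gene shares an 18-base window with another annotated precursor, so their reads could be told apart from each other in spite of the common seed.

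The miR-218 genes lie within axon guidance genes, and miR-218 is known from motor neurons. Mir218-1 (ENSMUSG00000065603.1, chromosome 5, 48223942 to 48224051, plus strand) sits within an intron of Slit2. Mir218-2 (ENSMUSG00000065583.1, chromosome 11, 35616816 to 35616925, plus strand) sits within an intron of Slit3. Slit2 and Slit3 encode secreted ligands of Robo receptors. The hairpins bear on how their reads could be counted, and capitals mark the longest stretch that both contain:
Mir218-1: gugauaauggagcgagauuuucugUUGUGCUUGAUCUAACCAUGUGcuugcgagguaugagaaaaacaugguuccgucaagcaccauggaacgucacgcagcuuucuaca
Mir218-2: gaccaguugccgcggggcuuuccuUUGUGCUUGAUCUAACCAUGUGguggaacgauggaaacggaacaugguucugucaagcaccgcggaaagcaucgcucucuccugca
That stretch of 22 bases holds the whole of miR-218-5p, so a read within it matches both loci. The files hold a separate row for reads aligned to several places, but the rule behind it is not given in the text deposited with them, and such reads may have been counted on neither gene.

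The counts were low for both copies. Mir218-2 had 14 reads or 3.54 CPM in replicate 2, against 7 reads or 1.99 CPM in replicate 1. Mir218-1 had 13 reads or 3.29 CPM in replicate 2, against 7 reads or 1.99 CPM in replicate 1. The copies differed by a single read in replicate 2 and by none in replicate 1. Their ratios were 1.78 (0.671 to 5.20) for Mir218-2 and 1.65 (0.612 to 4.89) for Mir218-1, and neither difference was detectable at this depth. These counts do not measure miR-218-5p, and any share of its reads that was set aside was not analysed here. They were the 2 genes of the 10 that share a 22-base window with another annotated precursor.

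Mir137, a regulator of neural stem cells and of synaptic genes, differed widely between the animals. It had 670 reads or 169.6 CPM in replicate 2, against 161 reads or 45.9 CPM in replicate 1, a mean of 107.7 ± 87.5 CPM. In replicate 2 it was the second of the 10 genes and exceeded Mir132, whereas in replicate 1 it was below Mir132. Their means, 107.7 and 108.4 CPM, do not differ beyond the spread of the animals. Mir137 (ENSMUSG00000065569.2, chromosome 3, 118433857 to 118433929, plus strand) lies in an exon of both transcripts that span it of the noncoding gene Gm26871, and was the one gene of the 10 in an exon.

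Mir598 and Mir383 lie in introns of protein-coding genes and are known from brain. Mir598 (ENSMUSG00000076049.4, chromosome 14, 63727189 to 63727267, plus strand) is in Xkr6, a gene of the XK family of membrane proteins. It had 277 reads or 70.1 CPM in replicate 2, against 142 reads or 40.4 CPM in replicate 1, a mean of 55.3 ± 20.99 CPM. Its ratio was 1.73 (1.41 to 2.14). Mir383 (ENSMUSG00000065457.3, chromosome 8, 38252133 to 38252202, minus strand) is in Sgcz, which encodes zeta-sarcoglycan of the dystrophin complex of muscle membranes.

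Mir383 had 149 reads or 37.7 CPM in replicate 2, against 19 reads or 5.41 CPM in replicate 1, a mean of 21.6 ± 22.8 CPM. The SD exceeded the mean, and the ratio of 6.97 (4.31 to 11.9) was the highest of the 10. Its rank by level was 217 in replicate 2 and 299 in replicate 1. Host transcripts are longer than the selected RNA, so the levels of Sgcz, Xkr6, Aatk, Slit2 and Slit3 were not analysed here.

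Mir92b and Mir7b have no host on their own strand. Mir92b, a miRNA of neural progenitors (ENSMUSG00000076255.2, chromosome 3, 89227116 to 89227198, minus strand), lies 27 bases from Mtx1, a gene of mitochondrial protein import on the same strand. Mir92b had 130 reads or 32.9 CPM in replicate 2, against 35 reads or 9.97 CPM in replicate 1, a mean of 21.4 ± 16.2 CPM. Its mean and that of Mir383 do not differ beyond the spread of the animals. Mir7b, of a miRNA family known from neurons and endocrine cells (ENSMUSG00000065491.1, chromosome 17, 56242988 to 56243098, plus strand), lies 182 bases from the lincRNA AC026385.1 on the same strand. Mir7b had 66 reads or 16.7 CPM in replicate 2, against 24 reads or 6.84 CPM in replicate 1, a mean of 11.8 ± 6.98 CPM. Both genes were higher in replicate 2, Mir92b 3.30-fold (2.26 to 4.94) and Mir7b 2.44-fold (1.51 to 4.08).

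Mir92b and Mir7b each belong to a larger seed family. Related mature sequences with the same seed in capitals were:
miR-92b-3p: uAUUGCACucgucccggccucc
miR-92a-3p: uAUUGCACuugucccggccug
miR-25-3p: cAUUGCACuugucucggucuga
miR-7b-5p: uGGAAGACuugugauuuuguuguu
miR-7a-5p: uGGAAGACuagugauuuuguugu
Over the bases aligned from the 5′ end, miR-92a-3p differs from miR-92b-3p at 2 of 21 and miR-7a-5p differs from miR-7b-5p at 1 of 23.

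In the family of miR-92b-3p, 7 of the genes searched carry the seed. Mir92-1, of a miRNA cluster known from dividing cells, had 663.8 CPM in replicate 2 and 846.5 CPM in replicate 1. Mir25, in Mcm7, a gene of DNA replication, had 309.4 CPM in replicate 2 and 314.4 CPM in replicate 1. Mir92b thus held a small part of the counted reads on genes with this seed in either library. Counts sum both hairpin arms, so reads that carry the seed itself were not counted apart. Mir32 averaged 23.6 ± 2.39 CPM, Mir363 15.7 ± 3.24 CPM and Mir92-2 14.9 ± 0.0896 CPM, and Mir367 had 0 reads in both libraries. At this depth, 0 reads permit a level of at most 0.760 CPM (replicate 2) or 0.854 CPM (replicate 1). Mir92-1 and Mir92-2 share a 22-base window, so reads of miR-92a-3p may have been set aside.

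The ratios of these relatives lay nearer to 1 than that of Mir92b. Replicate 2 over replicate 1 was 0.784 (0.744 to 0.827) for Mir92-1, 0.984 (0.906 to 1.07) for Mir25 and 1.15 (0.849 to 1.57) for Mir32. It was 1.34 (0.916 to 1.98) for Mir363 and 1.01 (0.683 to 1.49) for Mir92-2. All 5 intervals lay wholly below that of Mir92b, whose ratio had been seen before the gene was chosen.

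In the family of miR-7b-5p, Mir7-1 and Mir7-2 both encode miR-7a-5p. Mir7-1, in an intron of Hnrnpk, a gene of RNA processing, had 43 reads or 10.9 CPM in replicate 2 and 50 reads or 14.2 CPM in replicate 1. Mir7-2 had 17 reads or 4.30 CPM in replicate 2 and 7 reads or 1.99 CPM in replicate 1. Replicate 2 over replicate 1 was 0.764 (0.496 to 1.17) for Mir7-1 and 2.16 (0.851 to 6.16) for Mir7-2. Mir7b thus led the family in replicate 2, and Mir7-1 led it in replicate 1. The mean levels of Mir7b and Mir7-1 (12.6 ± 2.37 CPM) do not differ beyond the spread of the animals. Mir7-1 and Mir7-2 share 22-base windows with each other and may have lost reads.

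**Figure D2:**
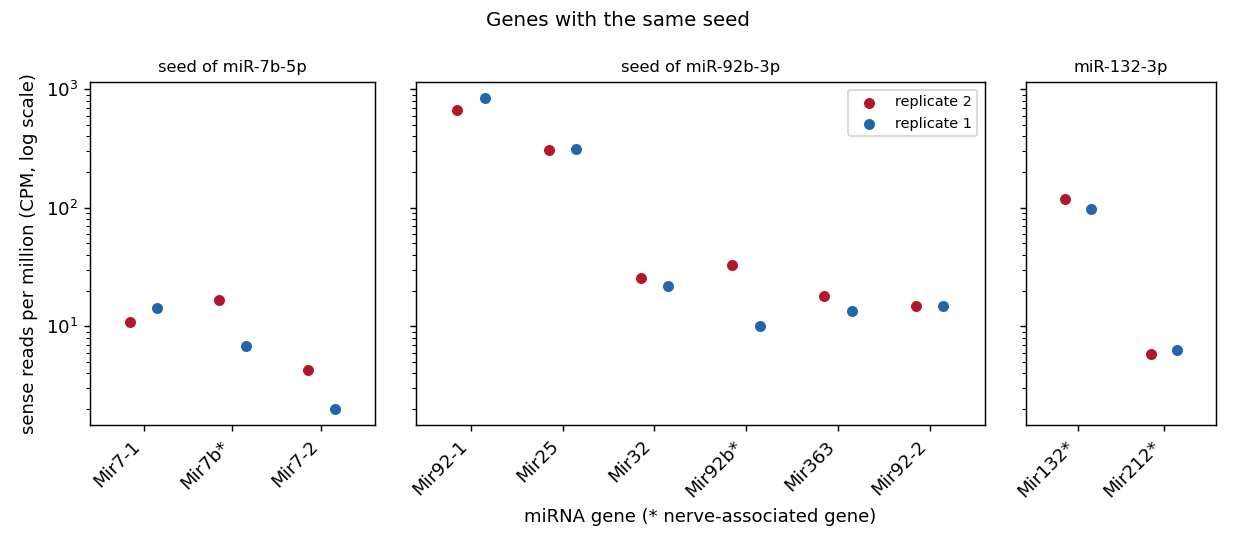
Level in sense reads per 1e6 (CPM, log axis) of genes whose mature miRNA has the seed of miR-7b-5p (left), miR-92b-3p (middle) or miR-132-3p (right), in replicate 2 and replicate 1; an asterisk marks the nerve-associated genes. Mir92-1 and Mir25 lie far above Mir92b in both libraries, and Mir7b lies above Mir7-1 in replicate 2 and below it in replicate 1.

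Across the 10 genes, 9 had more CPM in replicate 2, against 46.1% of the 395 genes with at least 10 sense reads in both libraries together. At least 2-fold higher were 4 of the 10, namely Mir383, Mir137, Mir92b and Mir7b, where 6.58% of all these genes were. None of the 10 was at least 2-fold lower, where 5.06% of all were. These 4 were chosen for that difference, so nothing is read from their count. The median log2 ratio, replicate 2 over replicate 1, was 0.79 for the 10 genes and -0.03 for all 395 (each count raised by 0.5). The same 4 genes help to fix this median and the 9 of 10, so nothing is read from those contrasts either. The other 6 genes had log2 ratios of 0.79 for Mir598, 0.78 for Mir218-2, 0.68 for Mir218-1, 0.59 for Mir338, 0.30 for Mir132 and -0.11 for Mir212. The intervals of Mir212, Mir218-1 and Mir218-2 included 1, and those of the other 7 genes did not. These intervals cover counting error only, and the matching share over all 395 genes was not computed. Nothing is therefore read from that count.

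**Figure D3:**
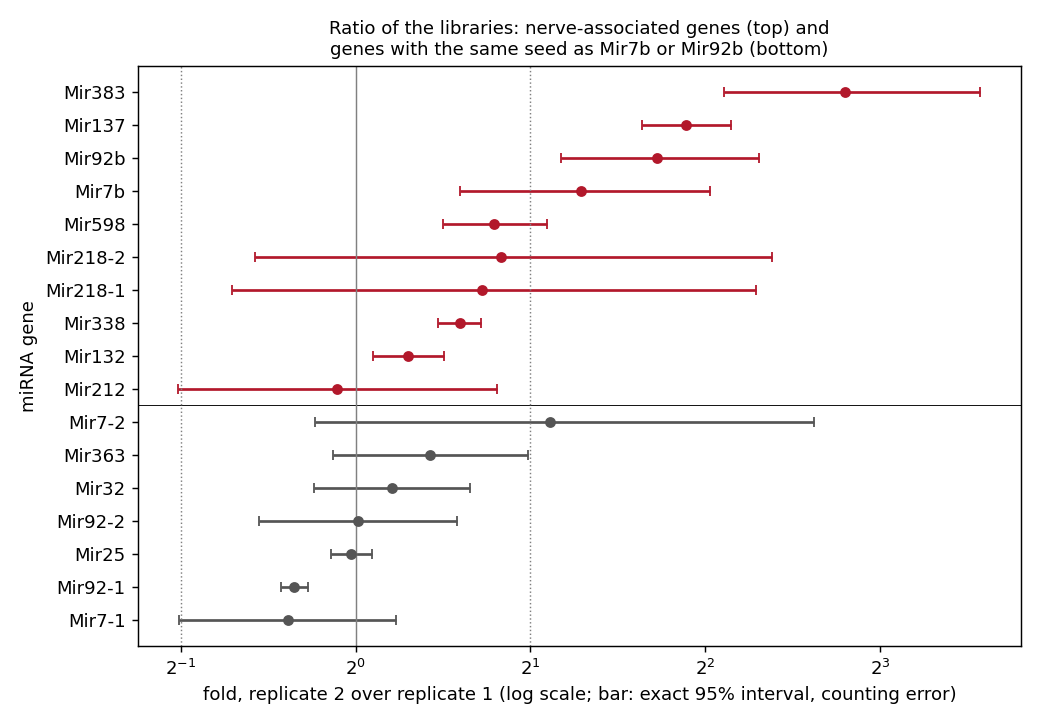
Fold of replicate 2 over replicate 1 (log axis) with exact 95% counting intervals, for the 10 nerve-associated genes above the line and for the genes that share a seed with Mir7b or Mir92b below it; dotted lines mark 2-fold either way. Mir383, Mir137, Mir92b and Mir7b, which had been chosen by this ratio, lie past 2-fold. So does the relative Mir7-2 at 2.16 (0.851 to 6.16), while Mir7-1, Mir92-1, Mir25, Mir32, Mir363 and Mir92-2 lie within it.

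The share of genes past 2-fold depended on level. Among the 267 genes of at least 10 CPM on average, 1.87% were at least 2-fold higher in replicate 2 and 1.5% at least 2-fold lower. The 10 genes include 7 in that range, of which 4 were past 2-fold higher, the 4 chosen by this ratio, and 0 past 2-fold lower, so nothing is read from that count either. Among genes with at least 10 reads but under 10 CPM, 16.4% of 128 were at least 2-fold higher. Summed over all 10 genes, replicate 2 over replicate 1 was 1.80 (1.70 to 1.91), a value that the 4 chosen by their ratio help to fix. The other 6 genes together had 2249 reads in replicate 2 and 1372 in replicate 1, a ratio of 1.46 (1.36 to 1.56). Most of those reads were on Mir338. The leave-out of the 4 was added after seeing the data.

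**Figure D4:**
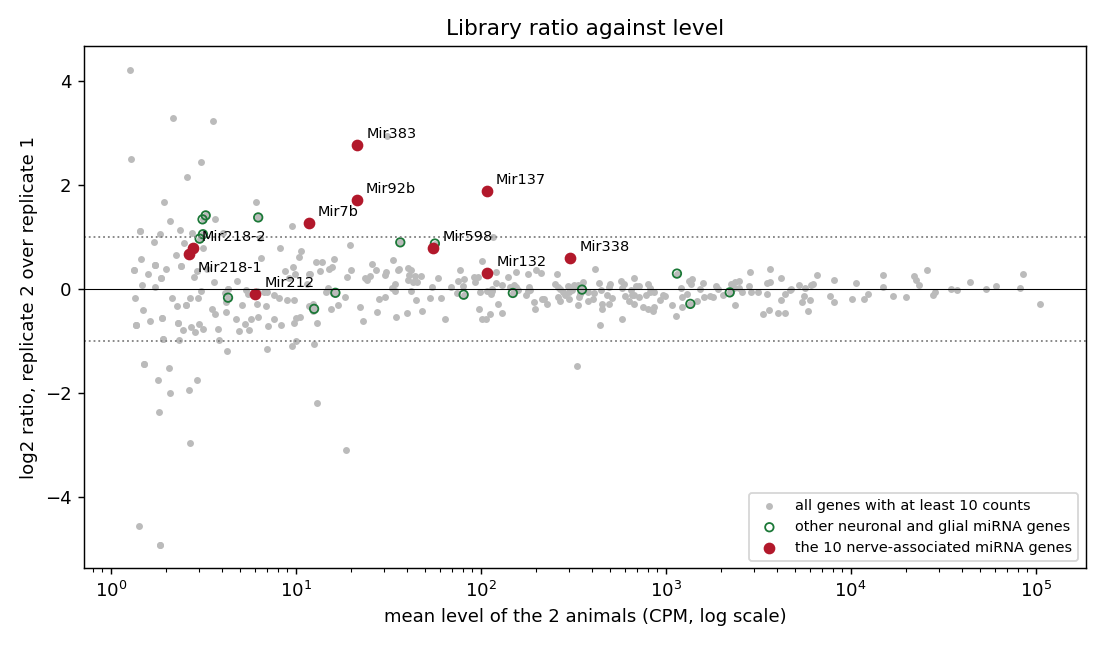
Log2 ratio of replicate 2 over replicate 1 against the mean level of the 2 animals (CPM, log axis) for all 395 genes with at least 10 counts in grey, the 10 nerve-associated genes in red and other neuronal and glial miRNA genes as green rings; dotted lines mark 2-fold. Mir137, Mir383, Mir92b and Mir7b, which had been chosen by this ratio, lie above the 2-fold line. The scatter widens below 10 CPM, close to the level of Mir7b.

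Other miRNA genes of nerve were divided. Of 24 listed genes, 18 neuronal and 6 glial or of Schwann cells, 16 had at least 10 reads, and 4 of these were at least 2-fold higher in replicate 2 and 0 at least 2-fold lower. The 4 were Mir488 (19 reads in replicate 2 and 6 in replicate 1), Mir129-2 (36 in replicate 2 and 12 in replicate 1), Mir153 (18 in replicate 2 and 6 in replicate 1) and Mir7-2. Over all genes the share at least 2-fold higher was 6.58%. All 4 were among the 6 tested genes of these lists under 10 CPM, where 16.4% of all genes were at least 2-fold higher. Of the 10 at or above 10 CPM, 0 passed 2-fold. The median log2 ratio of the 16 genes was 0.14, and 8 were higher in replicate 2. The lists differed: the 11 neuronal genes had a median of 0.87, with 7 higher in replicate 2 and 4 lower. The 5 glial or Schwann cell genes had a median of -0.08, with 1 higher and 4 lower.

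Among the abundant ones, Mir138-1, whose miRNA acts at synapses, had 73.2 CPM in replicate 2 and 39.9 CPM in replicate 1, and its copy Mir138-2 had 47.9 CPM in replicate 2 against 25.6 CPM in replicate 1. Their log2 ratios of 0.87 and 0.90 were close to that of Mir598. The copies of miR-138, and those of miR-128, share 22-base windows with each other, so their levels are uncertain. Mir149 averaged 2220 ± 73.8 CPM, Mir134 1359 ± 192 CPM, Mir128-1 1151 ± 165 CPM and Mir128-2 352.9 ± 2.44 CPM. These 4 stood above Mir338 in mean level, with log2 ratios between -0.29 and 0.29. For Mir128-2 the order was reversed in replicate 2, with 351.2 CPM against 366.9 CPM for Mir338. The means of Mir128-2 and Mir338 do not differ beyond the spread of the animals. Mir204, Mir221 and Mir222, of the glial and Schwann cell list, had log2 ratios of -0.08, -0.11 and -0.08.

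Defining miRNAs of neuronal cell bodies were at or near 0. On the 6 genes of miR-124 and miR-9 together there were 9 reads in replicate 2 and 1 in replicate 1, and Mir124a-1, Mir124a-2, Mir124a-3 and Mir9-2 had 0 in both. All 6 share 22-base windows with copies, so a count of 0 sets no limit on the mature miRNA. Beside Mir338, the glial genes Mir219a-1 and Mir219a-2 had 16 reads each in replicate 2, against 16 and 7 reads in replicate 1, and they too share windows with each other. The label nerve-associated therefore rests on where these miRNAs are known from, and reads of these 10 genes were not shown to come from nerve cells.

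Markers of other tissues also differed between the libraries. Muscle markers summed to 95861 CPM in replicate 2, against 116468 CPM in replicate 1, nearly all on Mir206, and 7 of the 8 were detected. Mir1a-1 and Mir1a-2 share 22-base windows with each other, as do Mir133a-1 and Mir133a-2. Their reads may have been set aside, so the sum does not measure miR-1 or miR-133a as a whole. Of the 7 muscle markers with at least 10 reads, Mir206 was lower in replicate 2 and the other 6 were higher, with a median log2 ratio of 0.32 over the 7. Mir133a-1, at 22 reads in replicate 2 and 9 in replicate 1, was at least 2-fold higher, with an interval (0.962 to 5.36) that includes 1. Epithelial markers summed to 125.1 CPM in replicate 2, against 197.1 CPM in replicate 1. Of the 6 with at least 10 reads, 3 were at least 2-fold lower in replicate 2, where 5.06% of all such genes were. Mir200a, at 10 and 4 reads, was at least 2-fold higher, with an interval (0.641 to 9.71) that includes 1. The liver marker Mir122 had 175.7 CPM in replicate 2 and 491.0 CPM in replicate 1. The endothelial marker Mir126a had 46314 CPM in replicate 2 and 42036 CPM in replicate 1. Erythroid markers summed to 1865 CPM in replicate 2, against 2066 CPM in replicate 1, and leukocyte markers to 654.0 CPM in replicate 2, against 743.4 CPM in replicate 1. The part of these differences in the ratios of the 10 genes was not tested.

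Over only 2 libraries a gene's pattern is its ratio, so likeness was the distance in log2 ratio among 260 other genes of at least 10 CPM. Nearest to Mir338 (0.59) were Mir5113 (0.61), Mir664 (0.58) and Mir187 (0.56). Nearest to Mir137 (1.88) were Mir330 (0.99), Mir138-2 (0.90) and Mir138-1 (0.87), all well below it. Mir137 had been chosen by this ratio, and the rest of the 10 genes were left out of the search, so nothing is read from that gap. Among all genes of at least 10 CPM, 5 were at least 2-fold higher in replicate 2, and 4 of these were of the 10. Those 4 had been chosen by this ratio, so nothing is read from that count. The 1.87% given above for such genes rests mostly on them. Mir330 had 614 reads in replicate 2 and 274 in replicate 1.

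The genomic settings of the 10 genes were mixed. Introns held 7 of them, an exon 1, and 2 had no host on their strand. The 8 hosted genes lie in 7 host genes, and 5 have a protein-coding host. Chromosome 11 carries 4 of the 10, of which Mir132 and Mir212 are neighbours.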

How the data were processed

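Per the file layout, the authors deposited raw read counts per miRNA gene, unnormalized, with unstranded, sense and antisense columns identified here from their order and totals. Build mm10 and annotation GENCODE M21 are stated in the descriptions deposited beside the counts; neither text names an aligner, adapter trimming or a read filter (not given in the sources used here). All 2202 gene identifiers matched GENCODE M21. The 4 summary rows, 61.2% of reads in replicate 2 and 56.9% in replicate 1, stayed out of library totals. Counts sum both hairpin arms.

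Sense counts were scaled to CPM. Ratios are replicate 2 over replicate 1, with exact conditional 95% intervals, and log2 ratios have 0.5 added to each count. Genes with at least 10 reads over both libraries formed the background. Ratios and intervals were tested on simulated counts that varied by counting error only. The simulation held no spread between animals, so it checks the calculation alone. Shared sequence was counted as 22-base and 18-base windows of annotated precursors, both strands. A count of 0 allows 3 counts. Intervals and floors cover counting error only, since the counts carry no molecular identifiers. Alternatives were all reads as total, TMM factors (edgeR 4.0.16), size factors (DESeq2 1.42.0), unstranded counts, 5 added to each count, other filters and each replicate alone.

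The 10 genes, the lists and the rule for named genes (the 10, their hosts, neighbours within 10000 bases, genes with the same seed, the nearest in ratio and the listed nerve and marker genes) were chosen with earlier results of these data known. Of the neighbours, those that bear on a result are named. The labels alone say that the libraries come from separate animals.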

Additional observations from a re-analysis of the deposited data

How the results depend on the processing

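The count of the 10 genes past 2-fold was 4 under each of the alternatives run (all reads as total, TMM, DESeq2 size factors, unstranded counts, 5 added to each count, no filter, genes of at least 10 CPM). It is out of 9 genes without strand, where Mir338 drops out, and out of 7 among genes of at least 10 CPM. With all reads in the file as the denominator, the share of reads on the 10 genes was 0.0259% in place of 0.0643%, since this counts unplaced reads as well. From each library alone the share was 0.0459% to 0.0826%. Without strand it was 0.0406%, and Mir338 stood at 0. The median log2 ratio of the 10 genes was 0.78 with TMM factors, 0.84 with DESeq2 size factors, 0.82 without strand (9 genes) and 0.68 with 5 added to each count. Taking all reads as total moved the median log2 ratio of all genes from -0.03 to -0.18 and that of the 10 genes from 0.79 to 0.64, with 9 still above 0. No ratio of at least 2-fold changed its direction in these runs. No paired analysis was possible because both libraries belong to 1 group. Depth limits Mir212, Mir218-1 and Mir218-2, whose counts of 7 to 23 reads per library leave intervals that include 1. Leaving out the 4 genes chosen by their ratio, a choice made after seeing the data, brought the summed ratio to 1.46 in place of 1.80.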
